A study of Mus musculus with 2 samples.

Results

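The binding of Tcf1, a high-mobility-group transcription factor of the T cell lineage encoded by Tcf7, was examined at the genes for the enzymes that write and remove DNA methylation and for the core of polycomb repressive complex PRC2. Members were the Tcf1 ChIP-seq peaks whose summit lay inside, or within 50 kb of, 10 genes: Dnmt1, Dnmt3a, Dnmt3b, Tet1, Tet2, Tet3, Ezh1, Ezh2, Eed and Suz12. The rule gave 52 of the 22286 deposited peaks, and 48 of these met the high-confidence criteria used in the study, a fold enrichment of at least 4 with p under 1e-05 and q under 0.05. ChIP-seq sequences the DNA fragments that an antibody pulls down, and a peak is a place where such fragments pile up in the WT cells over the level in cells that lack the factor.

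There were 2 libraries, 1 of WT and 1 of Tcf1-deficient naive CD8+ T cells of mouse spleen, sorted as GFP+ TCRbeta+ CD62Lhi CD44lo-med cells and precipitated with an antiserum against Tcf1. In the series' design text, both genotypes carried hCD2-Cre and Rosa26-lsl-GFP, an allele that turns on GFP in cells where Cre has acted, and had either WT or floxed Tcf1 and Lef1. The sources differ on the control cells. Their title calls them Tcf1-deficient, the genotype label reads Tcf1-/-Lef1-/-, and the study's methods name Cd4-Cre+ Tcf7 fl/fl cells. Whether the control cells also lacked Lef1, which shares the DNA motif of Tcf1, cannot be told from these sources. The study describes a check of the antiserum's specificity, and whether it also binds Lef1 was not examined here. The study describes hCD2-Cre as acting mostly in mature T cells outside the thymus, and Cd4-Cre is known to act already in thymocytes, so the sources also leave unclear when the control cells lost the factor. The labels give neither age nor sex, nor how many mice were pooled.

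Enzymes of the DNMT family place methyl groups on cytosines of CpG pairs. TET enzymes oxidise those methyl groups, which opens the way to their removal. PRC2 trimethylates lysine 27 of histone H3, a mark of silenced genes, through a catalytic subunit, Ezh1 or Ezh2, held by the Eed and Suz12 subunits. In T cells, DNA methylation and PRC2 are known for keeping genes of other lineages and of effector cells silent, and TET enzymes for acting at lineage genes as the cells mature.

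Once duplicates were dropped, 36938606 of 46428124 WT fragments and 27625250 of 36118114 control fragments were left. Pileup stands below for how many WT fragments cover a peak's summit. Its fold enrichment is the pileup plus 1 over the control level plus 1, and that level cannot go under a genome-wide floor of 5.42, where 86.3% of all high-confidence peaks and 40 of the 48 members sat. With 1 library a group there is no replicate check and no test. The 95% intervals of pileups and folds below cover counting error of the WT pileup only. Those of peak rates, medians over peaks and shares treat the peaks of this 1 library pair as independent. Of the deposited peaks, 85.4% met the high-confidence criteria. The T cell genes checked carried peaks, among them Cd8b1 with 19 and Cd8a with 16 in the gene or 50 kb around it, and 6 of 6 matched T cell genes had a peak at their own promoter. Of the marker genes of other cells, Itgam had 3 peaks, Lyz2 had 1, and Ms4a1 and Ncr1 had none. A peak marks binding and not expression, so the identity of the cells was not checked by their RNA. A pileup is summed over a cell population, so more cells bound and stronger binding per cell cannot be told apart.

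The sequences of 5 member peaks are printed first, since the values below refer to them: the 3 highest peaks of the set, the highest of the DNMT genes and the only one with an E2F word. Each is the 121 bases centred on a summit, in mm9, read 5′ to 3′ on the strand of the named gene, with the words searched for in capitals. The words were ATCAAAG for Tcf and Lef factors, CGGAAGT for ETS factors, TGTGGTT for Runx factors, TTTGGCGC and TTTCCCGC for E2F factors and CCCGCCC for the GC box, each on both strands within 100 bp of the summit. TTTCCCGC and CCCGCCC share the bases CCCGC and can overlap. On the opposite strand ATCAAAG reads CTTTGAT and TGTGGTT reads AACCACA. The first and second intronic peaks of Tet3 are numbered by fold enrichment and not by position.
Tet3, first intronic peak, chr6:83387360-83387480: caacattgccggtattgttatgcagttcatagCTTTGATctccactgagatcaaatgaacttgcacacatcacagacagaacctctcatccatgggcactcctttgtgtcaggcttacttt
Tet3, second intronic peak, chr6:83366299-83366419: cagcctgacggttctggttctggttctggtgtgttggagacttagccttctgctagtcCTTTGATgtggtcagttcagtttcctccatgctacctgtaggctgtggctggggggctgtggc
Tet2, upstream peak, chr3:133226626-133226746: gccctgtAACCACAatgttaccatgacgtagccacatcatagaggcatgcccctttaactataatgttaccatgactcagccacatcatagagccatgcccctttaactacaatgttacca
Dnmt3a, intronic peak, chr12:3829383-3829503: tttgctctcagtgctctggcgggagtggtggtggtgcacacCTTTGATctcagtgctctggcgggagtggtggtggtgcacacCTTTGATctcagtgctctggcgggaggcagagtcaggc
Suz12, promoter peak, chr11:79806337-79806457: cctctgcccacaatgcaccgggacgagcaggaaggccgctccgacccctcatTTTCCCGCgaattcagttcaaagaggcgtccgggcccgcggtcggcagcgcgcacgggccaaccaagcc

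Peaks lay near 9 of the 10 genes, all but Dnmt3b, against 66.5% of 22367 protein-coding genes with a high-confidence peak in the same span. A peak within 1 kb of an own transcription start site (TSS) was found at 6 of the 10, Dnmt1, Dnmt3a, Tet2, Ezh2, Eed and Suz12, against 32.8% of protein-coding genes. The median fold enrichment of the members was 5.84 (95% interval of the median over peaks 5.27 to 7.32, n = 48 peaks of 1 library pair), beside 6.86 over all 19042 high-confidence peaks. It lay on the other side of that value, at 7.32, both for the 19 peaks inside the named genes and for the 26 whose nearest start was that of a named gene, so the order depends on which peaks are assigned to the genes. They were close together, at 29.7 high-confidence peaks per Mb (21.9 to 39.4) over 1.61 Mb, beside 7.17 per Mb of genome. Genes draw more peaks than the genome as a whole, and the median protein-coding gene had 9.72 per Mb. By role, the median fold was 5.36 for 12 peaks of the DNMT genes, 5.92 for 19 of the TET genes and 5.76 for 17 of the PRC2 genes, and the intervals of these medians overlapped.

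**Figure D1:**
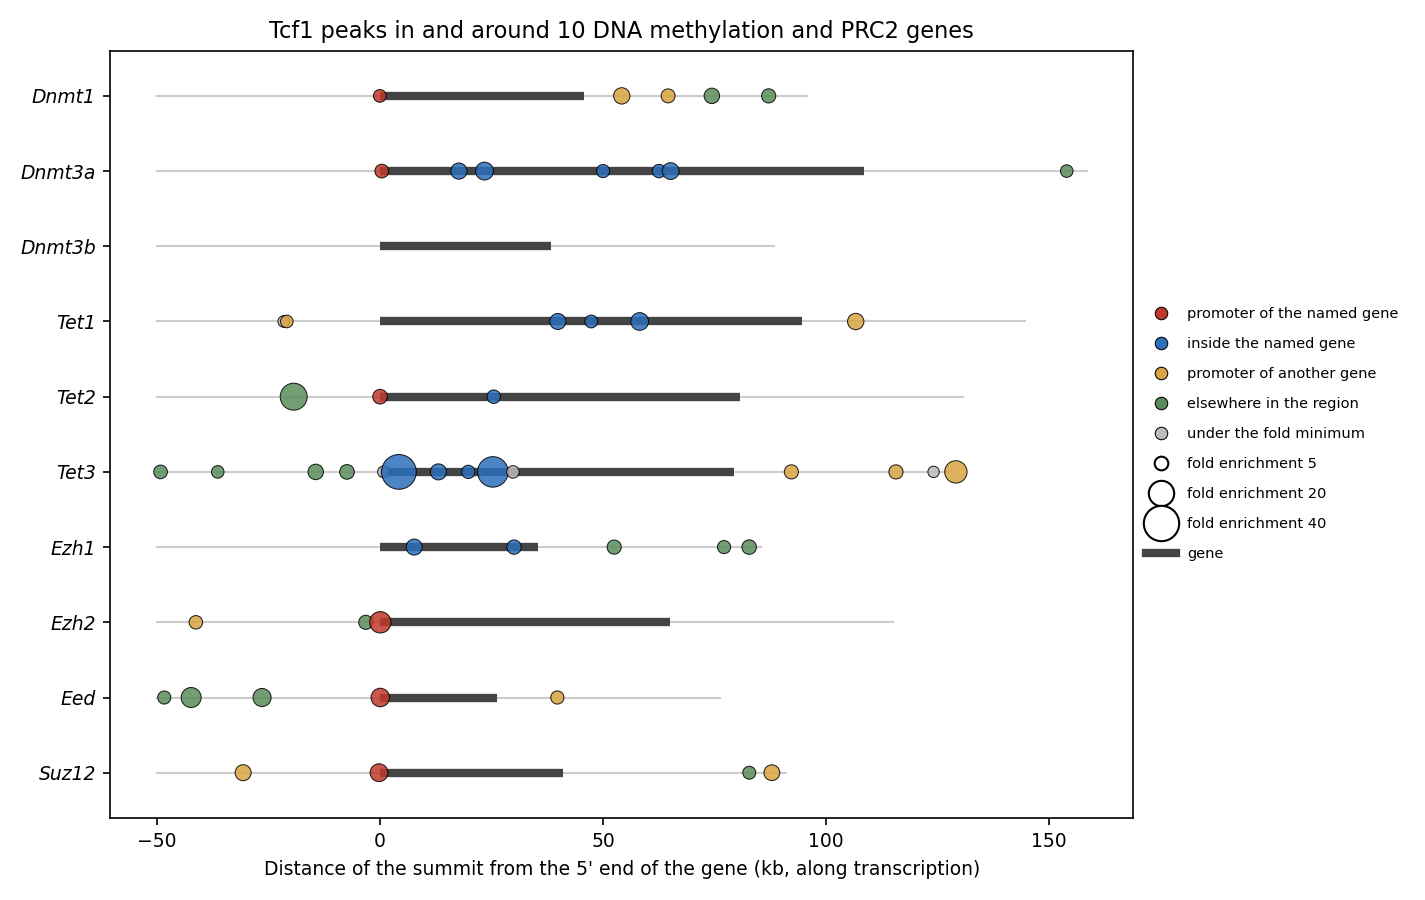
Map of the 52 peaks, with 1 row for each gene, where the horizontal axis is the distance of the summit from the gene's 5′ end in kb along the direction of transcription, the grey bar is the gene, and the area of a point grows with fold enrichment. The largest points are the pair inside Tet3 (38.6 and 29.5) and the peak upstream of Tet2 (22.7), and the row of Dnmt3b is empty.

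Among the DNA methyltransferases, Dnmt1, the maintenance enzyme that copies methylation after replication to the new strand, had the weakest of the high-confidence own-promoter peaks. The fold interval of this peak overlapped those of the Dnmt3a and Tet2 promoter peaks. Dnmt1 (ENSMUSG00000004099.8) lies at chr9:20711650-20757317 on the minus strand. Its promoter peak, chr9:20757222-20757525, had its summit 28 bp upstream of the start and a pileup of 26 WT fragments (17.0 to 38.1) over a control level of 5.42, a fold of 4.21 (2.80 to 6.09). That interval reaches under the minimum of 4, and 96.4% of all high-confidence promoter peaks were as high or higher. No high-confidence peak lay inside the gene body. The other 4 peaks of the region lay downstream of Dnmt1 and were nearer to other genes. A pileup of 48 and a fold of 7.63 (5.67 to 10.1) marked the promoter of Eif3g, a subunit of translation initiation factor eIF3, at chr9:20702818-20703329. The promoter of Ppan, a ribosome biogenesis gene, had a pileup of 43 over a control level of 7.35 and a fold of 5.27 (3.84 to 7.05), with 2 ETS words and 2 GC boxes. The peak 1.24 kb from the start of Angptl6 had a fold of 6.70, and the one 2.90 kb from A230050P20Rik, with 3 overlapping Runx words, 5.45.

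Dnmt3a, a de novo methyltransferase that sets methylation on unmethylated DNA, carried most of its binding inside the gene. Dnmt3a (ENSMUSG00000020661.9) spans chr12:3806007-3914443 on the plus strand, and 6 of its 7 high-confidence peaks lay in it. The peak 82 bp from an own start, chr12:3806283-3806714, had a pileup of 38 over a control level of 6.69 and a fold of 5.07 (3.63 to 6.92). In intron 1 of transcript Dnmt3a-001 the peak at chr12:3829219-3829616 was the highest of the DNMT genes, with a pileup of 59 (44.9 to 76.1), a control level of 5.42 and a fold of 9.35 (7.15 to 12). The other peak of intron 1 had a pileup of 47 and a fold of 7.48 (5.54 to 9.89). Intron 3 held a peak with a pileup of 34 over a control level of 6.69, a fold of 4.55, and intron 4 held a pair with folds of 4.83 and 8.10. The remaining peak, with a pileup of 25 and a fold of 4.05, lay in an exon of Pomc, the hormone precursor gene, 5 kb from its nearest coding start, and held 2 ETS words. The pileup intervals of the highest Dnmt3a peak and of its promoter peak (26.9 to 52.2) overlapped, and their fold intervals did not, since the control level was higher at the promoter.

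The highest Dnmt3a peak was the only member near a DNMT gene with the Tcf/Lef word, and it had it in 2 places. As the printed window shows, both copies stand in the same surrounding bases, and read on the strand of the word both sites are gcactgagATCAAAGgtgtgcac, at chr12:3829424-3829430 and chr12:3829466-3829472. The window is part of a tandem repeat with a unit of 42 bp that ran over 234 bp, chr12:3829271-3829504, or 5.57 units. Within 100 bp of the summit 78.6% of bases equalled the base 42 bp on. How reads were placed among the copies was not tested, so the pileup there is less certain than elsewhere.

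Dnmt3b, the other de novo methyltransferase, had no deposited peak. Its span, chr2:153475186-153513466 with 50 kb on each side, could hold up to 26.7 peaks per Mb at a count of 0 (95% bound). The nearest high-confidence peak, chr2:153566810-153567510 with a fold of 7.01, lay 53.5 kb from the gene and 0.024 kb from the start of Mapre1, a microtubule-binding protein gene. The lowest high-confidence pileup at the control floor was 25 fragments (16.2 to 36.9) and the lowest deposited pileup was 18, so weaker binding at Dnmt3b was not detectable at this depth. Of all protein-coding genes, 33.5% likewise had no high-confidence peak in such a span.

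**Figure D2:**
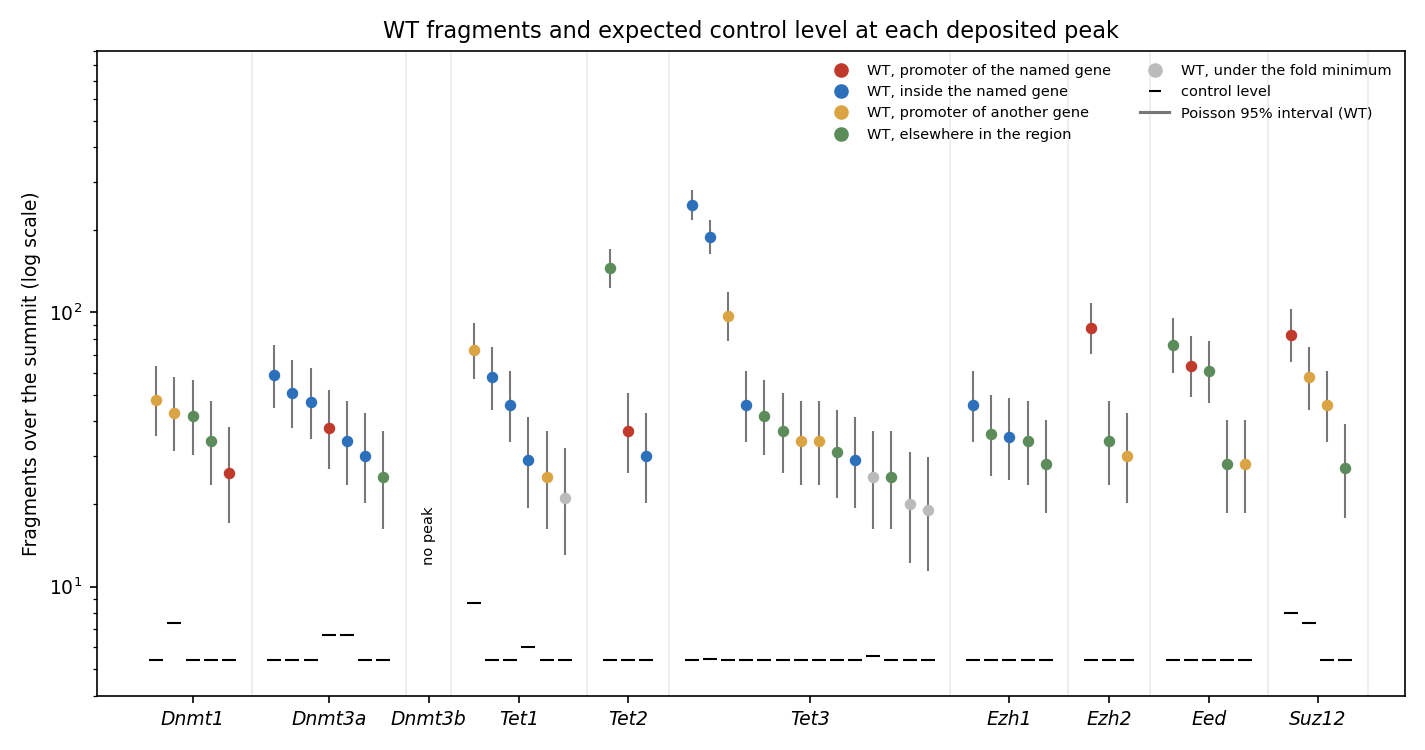
WT pileup (fragments over the summit, log axis) of each of the 52 peaks by gene, with bars for the 95% Poisson interval. The Tet3 points at 247 and 189 and the Tet2 point at 145 stand above the rest, while 14 high-confidence peaks were within 1 Poisson SD of the minimum.

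The TET genes held the 3 highest peaks of the set, and the only ones with a fold of 20 or more, a level reached by 7.98% of all high-confidence peaks. The highest 2 lay in intron 2 of transcript Tet3-001. Tet3 (ENSMUSG00000034832.8), a TET enzyme known for demethylation of the paternal genome in the zygote, lies at chr6:83312367-83391672 on the minus strand. The peak at chr6:83387071-83387780, 4.25 kb from the gene's start, had a pileup of 247 WT fragments (217 to 280) over a control level of 5.42, a fold of 38.6 (34.0 to 43.8). It ranked 272 in the whole list, and 1.45% of high-confidence peaks were as high. The peak at chr6:83364869-83366869, 2001 bp wide and 25.3 kb from the start, had a pileup of 189 (163 to 218) over 5.44, a fold of 29.5 (25.5 to 34.0), and ranked 609. The summits were 21.1 kb apart, and the first was 1.31 times the second in fold, with pileup intervals that overlap narrowly between 217 and 218. Only 2.28% of protein-coding genes had a strongest peak as high as that of Tet3 in their span, and 0.653% had one inside the gene.

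Both of these Tet3 peaks held the exact Tcf/Lef word close to the summit, in sequence that was otherwise unlike. The first had it 25 bp from the summit as cagtggagATCAAAGctatgaac, chr6:83387442-83387448, with 4 matches within 100 bp when 1 base of the word was left free. The second had it 1 bp from the summit as ctgaccacATCAAAGgactagca, chr6:83366355-83366361. Another high-confidence peak, 7.38 kb upstream of the gene at chr6:83398950-83399203, held the word 94 bp from its summit as ataggacaATCAAAGgaaatggg, with a pileup of 37 and a fold of 5.92 (4.21 to 8.10). Tet3 thus had 3 of the 5 members with the word. The pair of strong peaks had a different base composition, with GC contents of 41.3% and 59.2% within 100 bp of the summit, and held CpG pairs at 0.235 and 0.0594 of the number expected from their C and G content, beside a median of 0.246 over all distal peaks.

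The Tet3 region was the densest of the set. Its 14 deposited peaks, of which 11 were high-confidence, gave 61.3 per Mb (30.6 to 110), and 4.34% of protein-coding genes were as dense. Inside the gene, folds of 7.32 (pileup 46) and 4.67 (pileup 29) stood between the strong pair. Upstream, the peak at chr6:83405908-83406867 had a pileup of 42 and a fold of 6.70 in a stretch of 80.1% GC with a GC box, and those farther upstream, near Dguok, a mitochondrial deoxyguanosine kinase gene, had folds of 4.05 and 4.99. No high-confidence peak lay within 1 kb of a Tet3 start. The peak 0.775 kb from the start, with a pileup of 20 (12.2 to 30.9) and a fold of 3.27, fell short of the minimum. Downstream, the promoters of Bola3 and Mob1a each had a pileup of 34 and a fold of 5.45. The peak 0.992 kb from the start of Mthfd2, an enzyme of mitochondrial folate metabolism, had a pileup of 97 (78.7 to 118), a fold of 15.3 (12.4 to 18.6) and a Runx word 13 bp from the summit.

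Tet2, a TET enzyme often mutated in blood cancers, was bound most strongly outside the gene. Tet2 (ENSMUSG00000040943.7) lies at chr3:133126643-133207354 on the minus strand and is the only protein-coding gene in its span. The peak at chr3:133226363-133227011, 19.3 kb upstream, had a pileup of 145 (122 to 171) over a control level of 5.42, a fold of 22.7 (19.2 to 26.7) and rank 1159. The promoter peak, chr3:133206666-133207606 with its summit 25 bp from the start, had a pileup of 37 (26.1 to 51.0) and a fold of 5.92 (4.21 to 8.10). An intronic peak, chr3:133181638-133181987, had a pileup of 30 and a fold of 4.83. The pileup of the upstream peak thus lay well outside the intervals of the other 2.

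The upstream Tet2 peak had no exact Tcf/Lef word. It held the Runx word 50 bp from its summit, and the intronic peak held it 16 bp from its own. Its printed window is also a tandem repeat, with a unit of 49 bp over 157 bp, chr3:133226593-133226749, or 3.20 units, and 65.8% of bases within 100 bp of the summit equalled the base 49 bp on. The word with 1 base free was found 3 times, nearest to the summit as gtagccacATCATAGaggcatgc. Members with such repeats were therefore 2 of 48, beside 0.604% of all high-confidence peaks with at least 60% of bases equal at a shift of 10 to 60 bp, a level set after the values of these members were seen. The part of repeats in the pileups was not tested.

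Tet1, the TET enzyme known for its high level in embryonic stem cells, had moderate intronic peaks and none at its promoter. Tet1 (ENSMUSG00000047146.8) lies at chr10:62267318-62361866 on the minus strand. In intron 3 of transcript Tet1-001 it held 3 peaks, with pileups of 46, 29 and 58, control levels of 5.42, 6.02 and 5.42, and folds of 7.32 (5.40 to 9.72), 4.28 (2.91 to 6.08) and 9.19 (7.02 to 11.8). The highest, at chr10:62303406-62303800, lay 24.4 kb from the nearest own start. In the rest of the region, the promoter of Ccar1, a coactivator of nuclear receptors, had the largest pileup of 73 (57.2 to 91.8) over a control level of 8.69, the highest control level among the members, and a fold of 7.64. The peak 0.636 kb from the start of Slc25a16, a mitochondrial carrier gene, had a pileup of 25 and a fold of 4.05. A neighbouring peak 9 bp from that start, with a pileup of 21 and a fold of 3.43, fell under the minimum. No Tet1 peak held the exact Tcf/Lef word.

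**Figure D3:**
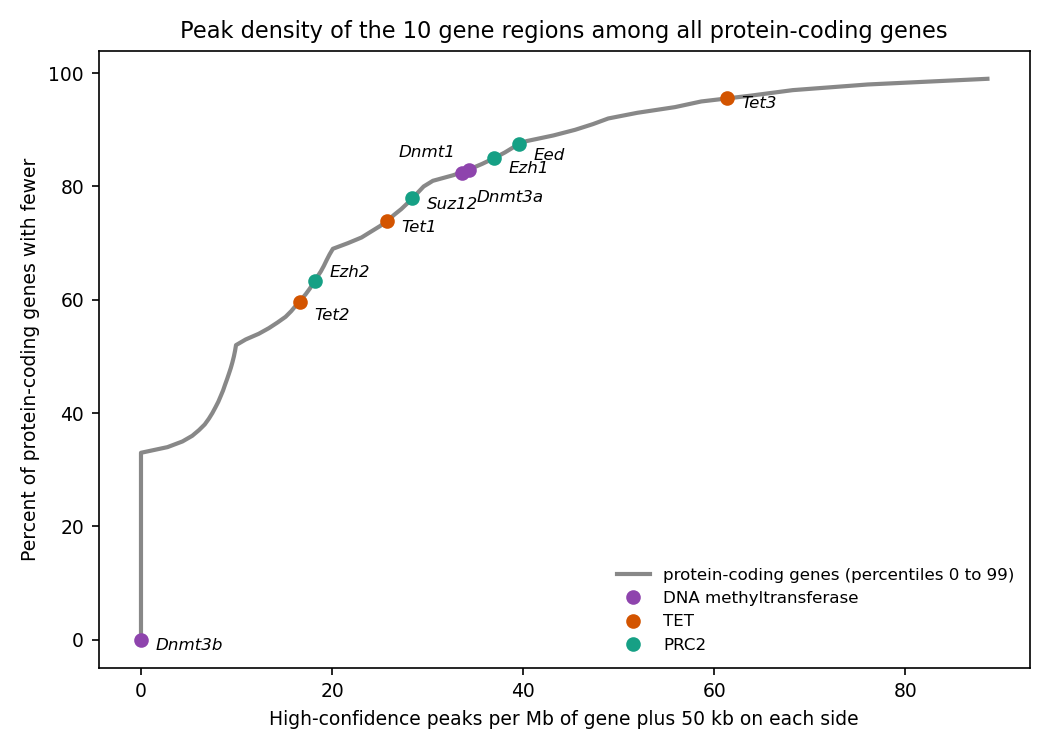
High-confidence peaks per Mb of gene and 50 kb on each side (horizontal axis) against the percent of protein-coding genes with fewer (vertical axis), with the line for all 22367 genes up to the 99th percentile and a point for each of the 10 genes. Tet3 stands highest at 61.3 per Mb, Dnmt3b is at 0, and the other 8 lie between 16.6 and 39.6.

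The PRC2 genes held the highest own-promoter peaks of the set. Ezh2, Eed and Suz12 had folds of 13.9, 10.1 and 9.31 there, above 5.92 for Tet2, 5.07 for Dnmt3a and 4.21 for Dnmt1. The intervals of Ezh2 lay above those of Tet2, Dnmt3a and Dnmt1 in both pileup and fold. The fold intervals of Eed and Suz12 overlapped that of Tet2, and the pileup interval of Eed also overlapped those of Tet2 and Dnmt3a. These differences were not tested, and an overlap of intervals does not show that there is none. The median over all promoter peaks was 6.54. Ezh2, the main catalytic subunit in dividing cells (ENSMUSG00000029687.9, chr6:47480273-47545340, minus strand), had its peak at chr6:47544699-47545548. The summit was 76 bp from the start, in an exon, with a pileup of 88 (70.6 to 108) over a control level of 5.42, a fold of 13.9 (11.2 to 17.0). Of all promoter peaks, 10.7% were as high. The other Ezh2 peaks were 3.17 kb upstream, with a pileup of 34 and a fold of 5.45, and 41.3 kb upstream, with a pileup of 30 and a fold of 4.83. The interval of the promoter peak did not overlap theirs.

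Eed, the subunit that binds trimethylated lysine 27 (ENSMUSG00000030619.8, chr7:97103166-97129493, minus strand), had 4 peaks at its promoter and upstream of it. The promoter peak, chr7:97128770-97129914, was 1145 bp wide, with its summit 78 bp from the start in exon 1, and had a pileup of 64 (49.3 to 81.7) over a control level of 5.42 and a fold of 10.1 (7.84 to 12.9). Upstream, pileups of 61 at 26.4 kb, 76 at 42.3 kb and 28 at 48.3 kb gave folds of 9.66, 12 and 4.52. The first 2 of these did not differ from the promoter peak beyond the counting intervals. The farthest and weakest was the one that held the exact Tcf/Lef word, 30 bp from its summit, as cataaaggATCAAAGgtgtgtgg at chr7:97177805-97177811. Downstream, the promoter of l7Rn6 had a pileup of 28 and a fold of 4.52, with an ETS word 5 bp from the summit.

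Suz12, the subunit that holds the complex together (ENSMUSG00000017548.9, chr11:79806608-79847625, plus strand), had its peak just upstream of the annotated gene. The peak at chr11:79806048-79806881 had its summit 211 bp from the start and a pileup of 83 (66.1 to 103) over a raised control level of 8.02, a fold of 9.31 (7.44 to 11.5). It was the only member with an E2F word, TTTCCCGC, centred 4.5 bp from the summit and printed above. No peak lay in the Suz12 gene body. The promoter of Utp6, a gene of ribosomal RNA processing, had a pileup of 46 and a fold of 7.32, and that of Crlf3 a pileup of 58 over 7.35 and a fold of 7.06. A peak 5.04 kb from Crlf3 had a pileup of 27 and a fold of 4.36, with a Runx word at the summit.

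Ezh1, the catalytic subunit known from cells that do not divide (ENSMUSG00000006920.8, chr11:101052429-101087777, minus strand), differed in place from the other PRC2 genes, with 5 peaks and none at a promoter of its own. The peak in intron 1, chr11:101079952-101080391, had a pileup of 46 (33.7 to 61.4) and a fold of 7.32 (5.40 to 9.72). The peak in intron 15 of transcript Ezh1-201, 1.98 kb from an internal start, had a pileup of 35 and a fold of 5.61. Outside the gene, the peak 1.48 kb from Ccr10, a chemokine receptor gene, had a pileup of 34 and a fold of 5.45. Those 6.58 and 12.2 kb from Tubg2, a gamma-tubulin gene, had pileups of 28 and 36 and folds of 4.52 and 5.76. All 5 had a control level of 5.42, and their intervals overlapped one another.

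None of the 17 member peaks within 1 kb of any annotated start held the exact Tcf/Lef word (Wilson interval 0 to 18.4%), beside 5.13% of all promoter peaks. Of the 31 distal members 5 held it (16.1%, Wilson interval 7.09 to 32.6), beside 13.5% of all distal peaks. Both intervals included the share over all peaks of that class. Over all members the share was 10.4% (4.53 to 22.2), beside 10.2% of all high-confidence peaks, and so near the background. The 3 strong PRC2 promoters had the word with 1 base changed near the summit, shown here as 23 bases on the strand of the word.
Ezh2, 6 bp from the summit, chr6:47545255-47545261: ggcaaaagAACAAAGacagcgac
Eed, 6 bp from the summit, chr7:97129406-97129412: aggcggaaCTCAAAGggctgctc
Suz12, 11 bp from the summit, chr11:79806405-79806411: gaattcagTTCAAAGaggcgtcc
The promoter peaks of Dnmt1, Dnmt3a and Tet2 held no such match within 100 bp. Over all high-confidence promoter peaks 37.4% had a match with 1 base free, so a match of this kind is common and does not mark a site. Of the other words, Runx was in 7 of 48 members (14.6%, beside 15.5% of all), the GC box in 5 (beside 17.8%), ETS in 3 (beside 6.93%) and E2F in 1 (beside 1.1%).

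**Figure D4:**
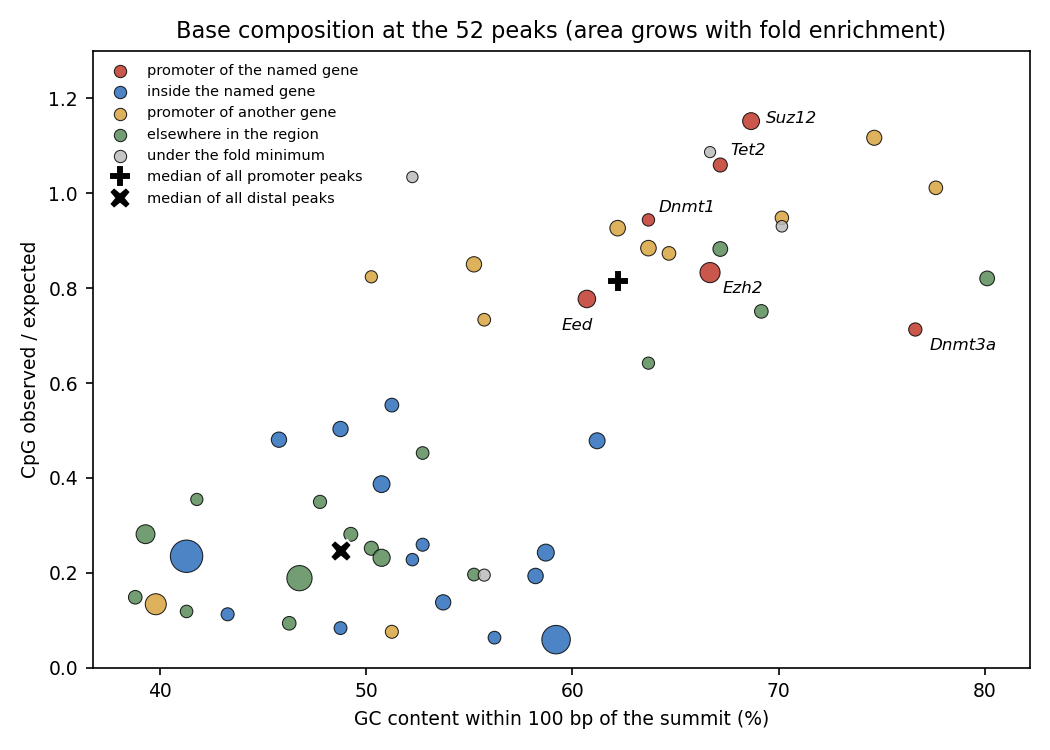
GC content within 100 bp of the summit (percent) against the number of CpG pairs over the number expected from C and G content, for the 52 peaks, with point area growing with fold enrichment and black marks for the medians of all promoter (plus) and distal (cross) peaks. The 6 own-promoter peaks sit at 60.7% GC or more, while the strong Tet3 peaks lie low, at CpG ratios of 0.235, near the median of all distal peaks, and 0.0594.

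Of the 48 high-confidence members, 17 (35.4%) were within 1 kb of the start of some annotated gene, beside 39.6% of all high-confidence peaks, and only 6 were at the named genes' own starts. The nearest protein-coding start was that of the named gene for 29 of the 48. Median base composition differed by place, but the ranges overlapped. GC content ran from 39.8 to 77.6% in the 17 promoter members and from 38.8 to 80.1% in the 31 distal ones. The 17 promoter members had a median GC content of 63.7% and a CpG ratio of 0.873, against 62.2% and 0.814 over all promoter peaks. For the 6 own-promoter peaks these medians were 66.9% and 0.888. The 31 distal members had medians of 50.7% and 0.252, against 48.8% and 0.246 over all distal peaks. Own-promoter peaks had a median width of 842 bp, beside 541 bp over all promoter peaks. Those of Dnmt1 (304 bp) and Dnmt3a (432 bp) were narrower than that. The 17 promoter members together had a median of 512 bp.

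A list of 50 other genes of DNA methylation and polycomb function, chosen with earlier results known, set the members beside the rest of their pathways. Of these, 49 were matched to the annotation, 46 had a high-confidence peak in the gene or 50 kb around it, beside 66.5% of protein-coding genes, and 37 had one at an own promoter, beside 32.8%. The median was 4 peaks and 25.2 per Mb, with a median own-promoter fold of 6.86, beside 6.70 over all protein-coding genes with such a peak. All 20 genes of PRC1, the complex that ubiquitinates histone H2A, had a peak and 14 had one at their promoter, and the 7 matched accessory subunits of PRC2 all had one at their promoter. Of 16 other DNA methylation genes, 15 had a peak and 13 a promoter peak, and of 6 genes for H3K27 demethylases and H2A deubiquitinases, 4 had a peak and 3 a promoter peak. The histone demethylase genes Kdm6a and Uty were among those without a peak. Kdm2b, which brings PRC1 to CpG islands, had the most with 12, then Bcor, its partner in a PRC1 variant, with 10. Folds above that of the Tet3 peaks were found near Ring1 (61.8), Aebp2 (56.2) and Pcgf1 (42.5), but each of those peaks lay outside the named gene, that of Ring1 0.199 kb from the start of H2-K1. Mtf2, a PRC2 accessory subunit, had 24.1 at its own promoter.

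The fold minimum decided membership at its edge. Just inside it were peaks with a pileup of 25 and a fold of 4.05 near Tet1, Dnmt3a and Tet3, and the Dnmt1 promoter peak at 4.21. Just outside were a Tet3 peak with a pileup of 25 over a control level of 5.57 and a fold of 3.96, and the Tet1 region's peak at 3.43. Of the 48, 14 were within 1 Poisson SD of the minimum, and the promoter of Dnmt1 was the only own promoter among them.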

How the data were processed

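Both libraries were paired-end Tcf1 ChIP-seq. The authors aligned reads to mm9 with Bowtie2 2.2.5 and called peaks on the WT library against the Tcf1-deficient library with MACS2 2.1.1, and deposited 1 peak list, so replicates were not pooled. The deposited pileup is a signal in fragments, the deposited fold enrichment a ratio to the local control level with a pseudocount of 1, and the deposited p and q values are on the −log10 scale. Per the file headers the larger library was to be scaled to the smaller and q was not to be calculated, yet all deposited pileups are whole numbers and every q is filled in, so how the libraries were scaled against each other is not certain.

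From these, the control level was computed as pileup plus 1 over fold, minus 1. Genes, start sites and sequences came from GENCODE vM1 and the NCBIM37 genome, the build of mm9. The high-confidence criteria, from the study's methods, were a fold minimum of 4 with p and q limits of 1e-05 and 0.05. Promoter means within 1 kb of any annotated start. Intervals are 95% exact Poisson for pileups and rates, and Wilson for shares. All 10 genes and all their peaks were named. Python 3.11.15 with pandas 2.3.3, numpy 2.4.6 and scipy 1.17.1 was used, tested on simulated peaks. The members and gene lists were chosen with earlier results of these data known. Alternatives changed the fold minimum, the region, the promoter distance, the motif window and the motif.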

Additional observations from a re-analysis of the deposited data

Results flagged for a closer look

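Among the deposited peaks that the high-confidence criteria leave out, 4 lay in these regions, all above the control level. In the Tet1 region the peak at the Slc25a16 promoter had a fold of 3.43. In the Tet3 region the peak 0.775 kb from the Tet3 start had a fold of 3.27, the intronic peak at chr6:83361801-83362046 had 3.96, and the peak at the Mthfd2 promoter had 3.12. Their pileups of 21, 20, 25 and 19 fragments had 95% intervals of 13.0 to 32.1, 12.2 to 30.9, 16.2 to 36.9 and 11.4 to 29.7, and 1 library pair holds no check of them. Dixon's rule for samples that stand apart could not be used with 1 library a group.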

How the results depend on the processing

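Of 56 alternatives over 7 results, 42 left a count within 1.5 times the reported one, or another value inside its 95% interval, and 14 moved it further. Within that tolerance the 48 high-confidence peaks still ranged from 33, with a fold minimum of 5, to 67, with 100 kb on each side. Counts fell with fewer peaks or shorter regions by construction, and for the shares and the median fold the cause was not tested. The median fold, 5.84 beside 6.86 over all high-confidence peaks, was 7.32 in gene bodies alone and for peaks nearest a named gene's start. A fold minimum of 8 left 12 high-confidence peaks (23.1% of the deposited members), with a median fold of 11.1 and 7.43 peaks per Mb. Their Tcf/Lef share was 25%, or 3 of 12 peaks, and 3 genes had a promoter peak, Ezh2, Eed and Suz12. A fold minimum of 5 gave 63.5% of the deposited members and 20.4 per Mb. The values over all peaks and all genes hold for the reported fold minimum only. Whether the members differ from all peaks at a higher minimum, in Tcf/Lef share or otherwise, was therefore not tested. Gene bodies alone held 19 peaks, 21.1% of them in promoters, a span of 20 kb held 31, and 26 peaks had a named gene's start as the nearest, 23.1% of them in promoters. With 1 base of the Tcf/Lef word free the share was 50%, beside 56.5% of all high-confidence peaks, against 10.4% beside 10.2% for the exact word. No paired analysis was possible because each group had 1 library. At this depth a pileup under 18 fragments was not listed, so weaker binding was not detectable.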
